A study of Homo sapiens with 8 samples.

Results

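The genes described here encode the nuclear-encoded subunits of the respiratory chain and ATP synthase, the 5 protein complexes of oxidative phosphorylation in the inner mitochondrial membrane. They were chosen by symbol alone, as protein-coding genes named NDUFA, NDUFB, NDUFC, NDUFS or NDUFV with a number (complex I), SDHA to SDHD (complex II), UQCR genes (complex III), COX4I to COX8 genes (complex IV) and genes beginning ATP5F1, ATP5M or ATP5P (complex V). This gave 83 genes of 19941 protein-coding genes, with 36, 4, 8, 17 and 18 in complexes I to V. The data are positions of YTHDF2 on RNA in HEK293T, an established human embryonic kidney cell line with a wild-type genotype in the labels. They come from iCLIP2, in which ultraviolet light links a protein to the RNA it touches, the protein is pulled down with an antibody, and cDNA synthesis stops at the linked nucleotide. The study made 4 libraries after 12 h with 20 µM STM2457, which blocks the m6A methyltransferase METTL3, in 0.2% DMSO, and 4 after the same time in 0.2% DMSO alone. Every replicate is labelled only by its number, with no word on separate cultures.

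The deposited list gives 1 score per position and no value for a library. STM2457 and DMSO were therefore not compared, no replicate error or read depth stands behind any value, and no test was made. All comparisons below are counts and levels set side by side.

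YTHDF2 is a cytoplasmic reader of N6-methyladenosine (m6A) in mRNA, and it brings bound transcripts to the deadenylation machinery. Complex I takes electrons from NADH and complex II from succinate. Complex III passes them from ubiquinol to cytochrome c, complex IV hands them to oxygen, and complex V uses the resulting proton gradient to make ATP. Complexes I, III, IV and V join subunits from the mitochondrial genome to the nuclear ones described here, whereas complex II is wholly nuclear-encoded. Nuclear subunits are made by cytosolic ribosomes, many of them as small proteins from short, abundant mRNAs.

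Of the 83 genes, 55 (66.3%) held a YTHDF2 site, against 38.9% of all protein-coding genes, but most held few. Sites numbered 109 in all, a mean of 1.98 per gene with a site against 4.85 over all genes with a site. A single site was found in 25 genes, 2 in 18 genes, and 3 or more in 12 genes (14.5% of the 83, against 23.9% of all protein-coding genes). A site here is a distinct strand-specific position within the annotated span of the gene, introns included. Because genes with low or no expression in HEK293T count in the background and expression was not measured here, the part of expression in these shares was not tested. The subunit genes are short, with a median span of 9242 nt against 23989 nt for all protein-coding genes. Among genes under 20 kb, 44 of 66 subunit genes held a site (66.7%, against 31.0% of all genes of that span), and 11 held 3 or more (16.7%, against 18.3%). The share depended on lower-scoring positions. When sites scoring below the list's median of 8.67 were dropped, 33.7% of the subunit genes held a site, against 30.5% of all protein-coding genes.

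The score is a positive number given by the authors, on a scale that the labels and the file leave unstated, and it serves only to rank positions within the list. The 109 sites had a median score of 6.82 (quartiles 1.84 and 15.6), against 8.68 over sites in all protein-coding genes. A gene's highest-scoring site had a median of 9.30 over the 55 genes, against 21.8 over all genes with a site. Sites in the top 10% of the list, which starts at a score of 47.0, occurred in 8 of the 55 genes (14.5%, against 26.9% of all genes with a site). Under 20 kb these shares were 15.9% and 30.4%. Counted by site the shares were closer, with 7.34% of the 109 sites in the top 10%, against 10.0% over sites in all protein-coding genes. A gene's highest score is taken over all its sites, a mean of 1.98 in these genes against 4.85 over all genes with a site.

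**Figure D1:**
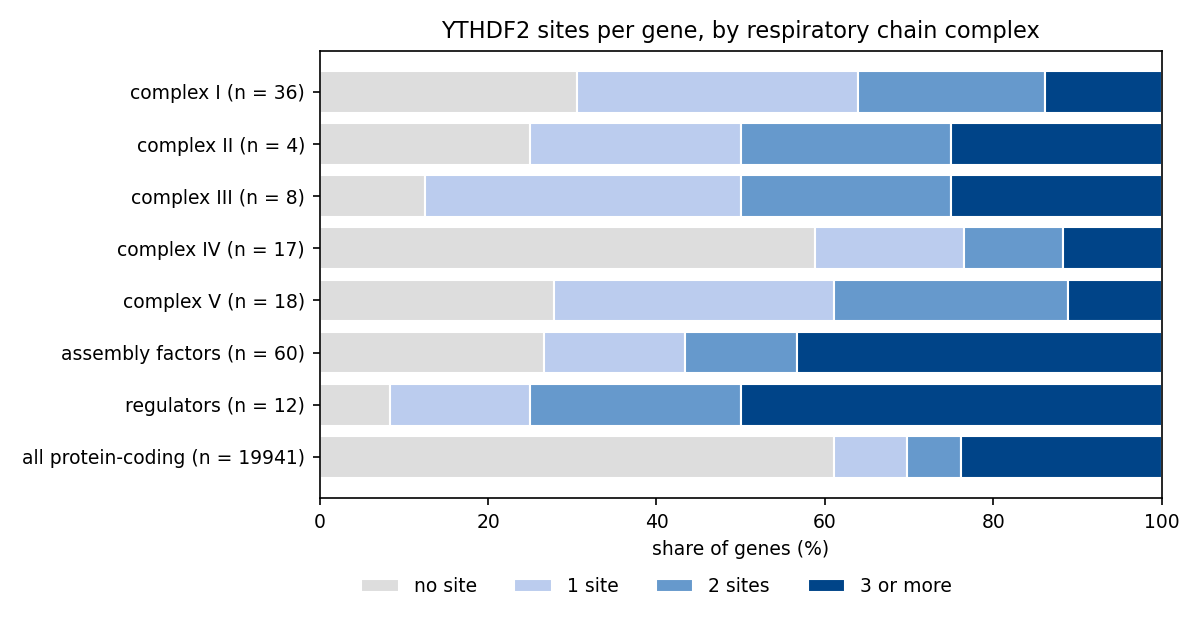
Horizontal bars give the share of genes (%, x axis) with no site, 1 site, 2 sites or 3 or more sites, for each respiratory chain complex, for assembly factors, for transcriptional regulators and for all protein-coding genes (number of genes in brackets). Complex IV has the largest part without a site among the complexes, 10 of 17 genes, near the part of all protein-coding genes without one (12174 of 19941), and the dark parts for 3 or more sites are widest in the assembly factors (43.3%) and regulators (50.0%).

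Sequence around a site could be read for 11 of the 109 positions, those inside the RefSeq promoter table's windows of 250 nt before to 50 nt after an annotated transcript start (GRCh38.p14). They are shown because they tell which nucleotide the list marks, and because 7 of them lie at the very start of a gene. The first 7, in order of distance from the gene's annotated 5′ end, are written 5′ to 3′ on the RNA's strand with T for U, and capitals mark the 5 nucleotides centred on the listed position.
ATP5MJ, chr14:103921518-103921538 (minus strand): gcgctcggTGACCtttccgag
UQCRQ, chr5:132866634-132866654 (plus strand): gaaatgacGAACGagtcaacc
ATP5F1C, chr10:7788170-7788190 (plus strand): ggcctgccTGACCgaccttca
ATP5MG, chr11:118401610-118401630 (plus strand): ccggcgggTGACAttcagccg
ATP5PO, chr21:33915775-33915795 (minus strand): ctcgggttTGACCtacagccg
SDHD, chr11:112086893-112086913 (plus strand): gccctcagGAACGagatggcg
ATP5MC1, chr17:48892810-48892830 (plus strand): gagcgctgAGACCaagggcta
The other 4 lie further inside their genes, in the window of an internal annotated start or, in NDUFB11, in the window of the neighbouring gene RBM10 read on the opposite strand. The COX7A2L window stops at the end of the table's sequence.
ATP5PF, chr21:25735217-25735237 (minus strand): accctaacGAACAggacgctg
ATP5PF, chr21:25735188-25735208 (minus strand): gggagcttGAACTaggggaaa
NDUFB11, chrX:47145014-47145034 (minus strand): aagatgaaAGACTagcggaag
COX7A2L, chr2:42361168-42361183 (minus strand): gggaagccGGACTctg

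All 11 positions were an A with A or G before it and C after it. The same held for all 278 positions of the whole list that fell in such windows, whereas 2.26% of all nucleotides in the first 48 nt after an annotated start had these neighbours. The listed positions therefore mark adenosines in this context wherever they could be read, and the rule by which the authors placed them is not stated in the labels or the file. The fuller DRACH consensus of m6A, in which the base before these 3 is not C and the base after them is not G, was met by 9 of the 11 (81.8%) and by 85.3% of the 278. Of the 278, 52 lay in the first 50 nt of a gene, and 38 of these (73.1%) met it. Most nucleotides with these neighbours meet it in any case, 25414 of 38102 in the first 48 nt after an annotated start. At least 1 DRACH match lay in the first 48 nt of 50.8% of all windows. Of the 11, 3 read TGACC, in ATP5MJ, ATP5F1C and ATP5PO, a 5-mer at 5 (1.80%) of the 278, these 3 included. The most frequent 5-mer over the 278 was GGACT at 14.7%, and among the 11 it stood only at the COX7A2L position. The 2 positions outside the consensus, in SDHD and UQCRQ, share the letters GAACG, which stood at 7 (2.52%) of the 278.

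Complex I, the NADH dehydrogenase, had a site in 25 of 36 genes, with 47 sites. NDUFV3, an accessory subunit of the NADH-oxidising arm, had the most at 6. Of these, 5 lay within 833 nt near the middle of its span, on chromosome 21 from 42903248 to 42904081 (GRCh38, plus strand), with scores of 35.0, 15.6, 18.6, 23.5 and 1.74 in 5′ to 3′ order. The other lay at 42908964 and scored 36.8, the highest of the gene. NDUFV3 thus carried a group of mostly well-scored positions away from either end of the gene. Neighbours in the group were 122, 148, 144 and 419 nt apart, against a median of 151 nt over all genes.

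NDUFA13, also known as GRIM-19, had 4 sites on chromosome 19. The first, at nucleotide 85 of the gene, scored 7.50, and the other 3, between 19527298 and 19527754 close to the 3′ end, scored 2.37, 1.13 and 0.511. All 4 were below the list's median score of 8.67. NDUFA6, an accessory subunit with an LYR motif, had 3 sites on chromosome 22, scoring 0.249 and 0.411 near its 5′ end and 24.2 at 42086132 near its 3′ end.

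NDUFB10 and NDUFB11 are accessory subunits of the membrane arm, with 3 sites each. In NDUFB10 they scored 6.03, 5.10 and 9.30 within 292 nt on chromosome 16, from 1961288 to 1961580. In NDUFB11 they scored 8.76, 12.6 and 3.72 within 538 nt on the X chromosome, from 47144486 to 47145024. NDUFA8, an accessory subunit of the membrane arm, had the only complex I site in the top 10% of scores, a single position at 122144249 on chromosome 9 scoring 60.4, near the middle of the gene (56.9% along its span).

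The other 19 bound genes of complex I had 1 or 2 sites each. Among them NDUFA2, with sites of 18.6 and 28.0, had the highest score and NDUFA9, with a single site of 0.264, the lowest. The core subunits, which hold the flavin, the iron-sulfur clusters and the quinone site, had a site in 4 of 7 genes and 2 sites at most. NDUFS7 scored 13.4 at best, NDUFS1 11.6, NDUFV1 4.92 and NDUFS8 2.56. Genes with no site listed included the core genes NDUFS3 and NDUFV2 and the accessory genes NDUFA1, NDUFA3, NDUFA7, NDUFA11, NDUFB4, NDUFB5, NDUFB6 and NDUFS4. Over all complexes, 14 of 20 core genes (70.0%) and 41 of 63 accessory genes (65.1%) held a site. Core here also took in all of complex II, UQCRFS1, and the F1 and c-ring genes of complex V. Every other gene counted as accessory, including UQCRC1, UQCRC2 and all of complex IV with its 6 tissue isoforms, none of which had a site.

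Complex II, succinate dehydrogenase, had a site in 3 of 4 genes, and SDHD held 5 of its 8 sites. SDHD encodes a membrane anchor of the complex. Its first site was at nucleotide 31 of the gene (score 1.13), and the other 4 lay within 551 nt of each other near the 3′ end, on chromosome 11 from 112094828 to 112095379, scoring 10.8, 1.54, 5.34 and 14.2. The iron-sulfur subunit SDHB had sites of 4.71 and 7.77, and the flavoprotein SDHA a single site at 0.0162, the lowest score of all 109. No site was listed in SDHC, the other membrane anchor. SDHA, SDHB, SDHC and SDHD have 4, 1, 5 and 7 pseudogenes by name in the gene table, and no source used here says how reads were divided among copies.

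Complex III, the cytochrome bc1 complex, had a site in 7 of 8 genes, among them the 2 highest scores of the 83 genes. UQCR10, a small accessory subunit, had the highest-scoring site of all 83 genes, a single position at 29769872 on chromosome 22 scoring 360 (99.8th percentile of the list). UQCRH, the hinge protein, had a single site at 46316593 on chromosome 1 scoring 88.2, which lay 183 nt from the 3′ end of the gene. UQCRH has 4 pseudogenes by name and UQCR10 has 1.

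UQCR11, another small accessory subunit, held the most sites of the 83 genes at 7. Of these, 6 lay within 596 nt near the 3′ end, on chromosome 19 from 1597549 to 1598145 (minus strand), scoring 10.3, 15.0, 14.4, 27.7, 4.17 and 10.9 in 5′ to 3′ order. Neighbours within this group were 89 to 175 nt apart, and the other site, at nucleotide 100 of the gene, scored 1.58. UQCRFS1, the Rieske iron-sulfur protein and a catalytic subunit, had 4 sites within 312 nt on chromosome 19, from 29207570 to 29207882, scoring 49.6, 38.0, 23.5 and 14.1 in 5′ to 3′ order. All 4 were above the median score of the list, and the first was in its top 10%. UQCRC1 and UQCRQ had 2 sites each and UQCRC2 1, with no score above 7.91, and no site was listed in UQCRB.

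Complex IV, cytochrome c oxidase, had a site in 7 of 17 genes (41.2%, near the 38.9% of all protein-coding genes), with 13 sites. COX4I1, the subunit through which ATP is known to regulate the enzyme, had 3 sites within 81 nt near its 3′ end, on chromosome 16 from 85806765 to 85806846, scoring 0.253, 20.5 and 49.2. COX7A2 had a single site 203 nt from its 3′ end, at 75237878 on chromosome 6, scoring 61.2. COX6A1 had a pair of sites 38 nt apart, scoring 20.8 and 21.7, also in its last 1 kb. COX7A2L, a factor of supercomplex assembly, had 3 sites at 0.823, 0.981 and 3.33, COX5A 2 of at most 6.87, and COX6B1 and COX7B 1 each, at 1.01 and 1.06. The complex thus held a few well-scored sites near gene ends and otherwise low scores.

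For complex IV, several genes have isoforms that are known mainly from particular tissues. None of the 6 genes COX4I2, COX6A2, COX6B2, COX7A1, COX7B2 and COX8C, the isoforms of lung, of heart and skeletal muscle or of testis, had a site. Their median span was 3271 nt. Of all protein-coding genes 38.9% held a site, and of those under 5 kb 21.2%. Of the 6 widely expressed counterparts of these isoforms (median span 7641.5 nt), 5 had a site (COX4I1, COX6A1, COX6B1, COX7A2 and COX7B) and COX8A had none. COX5B, COX6C and COX7C, which have no such isoform in the list, had none either, and have 8, 18 and 4 pseudogenes by name. COX8A has 0. Of the complex's genes with a site, COX6B1, COX6A1 and COX7B have 7, 6 and 4 pseudogenes. COX4I1, COX5A and COX7A2 have 2 each and COX7A2L has 0. Without the 6 tissue isoforms, 71.4% of the subunit genes held a site. The gene formerly named NDUFA4, now COXFA4 and counted as a complex IV subunit, falls outside the symbols used and had no site.

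Complex V, ATP synthase, had a site in 13 of 18 genes, with 23 sites. ATP5PF, the F6 protein of the peripheral stalk, had 3 sites within 174 nt close to its 5′ end, on chromosome 21 from 25735198 to 25735372 (minus strand), scoring 34.9, 33.1 and 64.8 in 5′ to 3′ order. All 3 ranked high in the list, the lowest of them at the 84.5th percentile. ATP5PB, the b subunit of that stalk, had 4 sites on chromosome 1, scoring 8.52 near mid-gene and then 2.41, 0.467 and 1.84 within 99 nt.

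ATP5F1B, the catalytic beta subunit, had a site of 54.5 at 56644938 on chromosome 12 and another of 0.315. The alpha subunit ATP5F1A had 1 site of 5.64, the gamma subunit ATP5F1C 2 of at most 3.64, and the delta subunit ATP5F1D 2 in its last 1 kb, at 1.14 and 17.5. Subunit c of the rotor ring is encoded by 3 genes for the same mature protein. ATP5MC1 had 2 sites, at 12.7 and 0.363, ATP5MC2 1 at 18.7, and ATP5MC3 none. Other genes without a site were ATP5F1E, ATP5MF, ATP5MGL and ATP5PD, and ATP5MK, ATP5ME, ATP5MG, ATP5MJ and ATP5PO had 1 or 2 sites of at most 12.1.

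**Figure D2:**
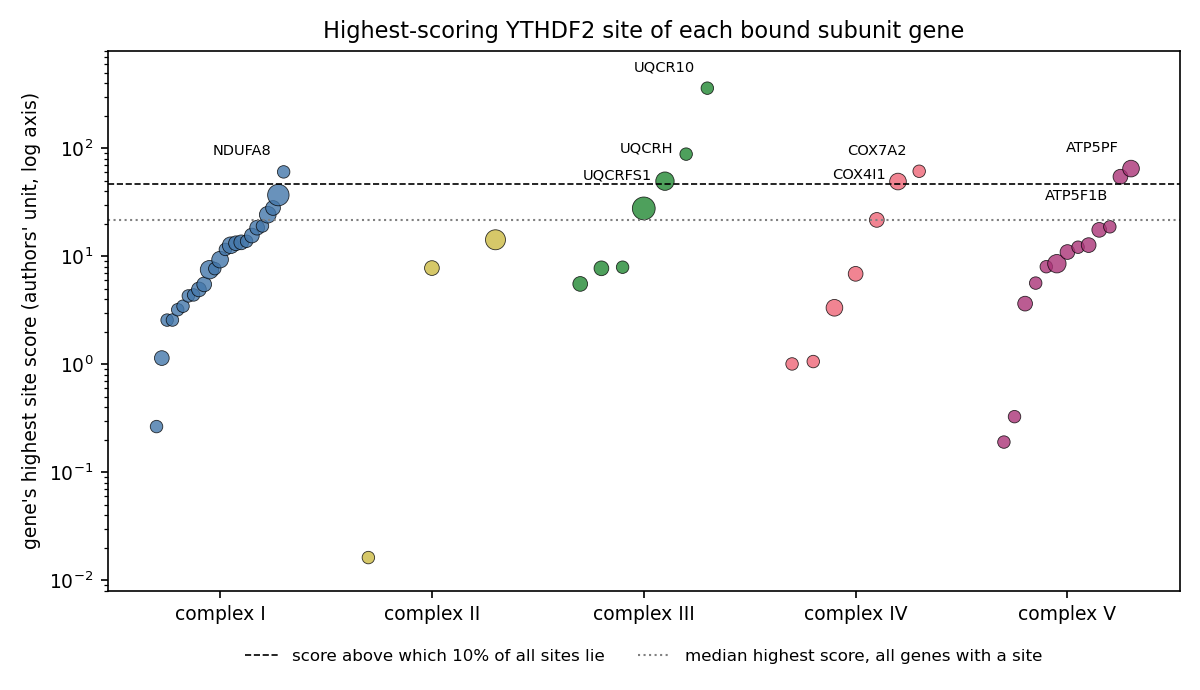
Each point is a subunit gene with a site, placed by complex (x axis) and by the score of its highest-scoring site in the authors' unit (y axis, log scale), with larger points for more sites. The 8 labelled genes are at or above the dashed line, the score of 47.0 at which the top 10% of the list starts. The dotted line is the median of 21.8 over all genes with a site, and 43 of the 55 subunit genes with a site lie below it.

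**Figure D3:**
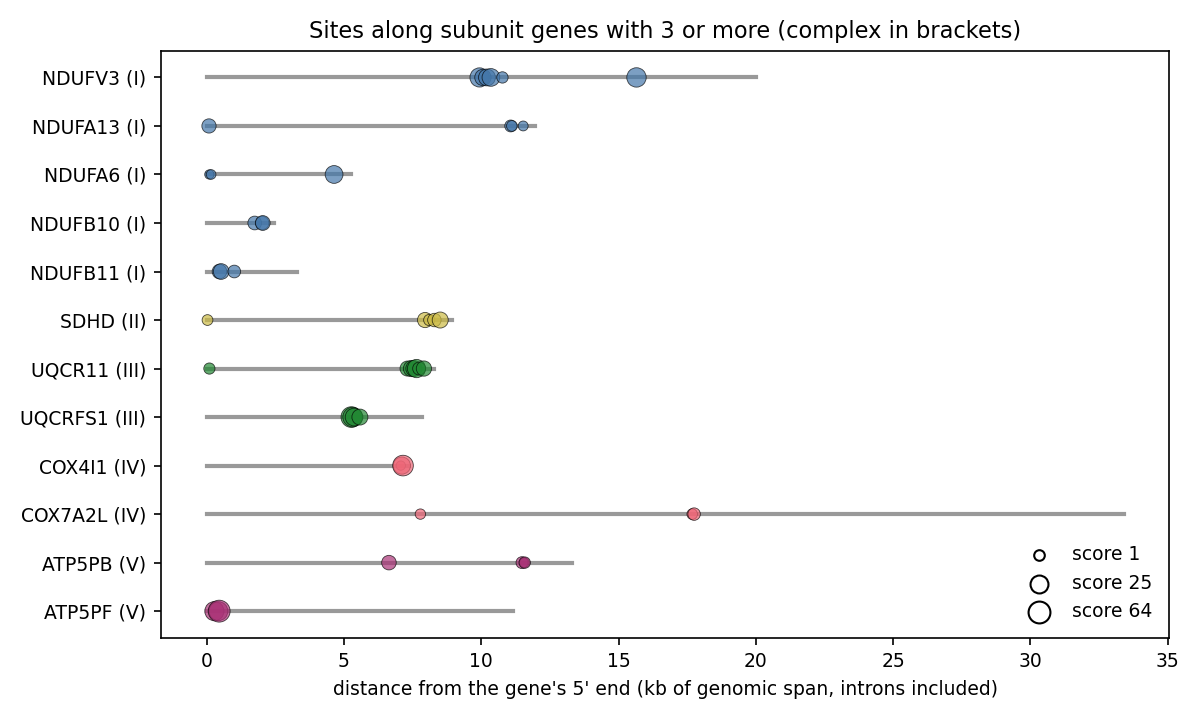
Lines give the genomic span in kb from the 5′ end (left) of the 12 genes with 3 or more sites, with the complex in brackets. Circles mark sites, larger for higher scores. Groups of sites within 1 kb lie near the 3′ end in SDHD, UQCR11 and COX4I1, mid-gene in NDUFV3 and near the 5′ end in ATP5PF. Gaps between neighbours reach 10989 nt in NDUFA13 and 9901 nt in COX7A2L. Sites of subunit genes are not closer together than those of all genes (median gap 213 nt against 151 nt).

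Many of the sites lay near the ends of their genes. The last 1 kb held 40 of the 109 sites (36.7%, against 16.9% of all site-gene pairs) and the first 1 kb held 23 (21.1%, against 5.43%). Counted by gene, the difference at the 3′ end was smaller. A site in the last 1 kb was found in 24 of the 55 genes (43.6%, against 37.8% of all genes with a site). These genes are short, so the comparison was repeated among genes under 20 kb. There the last 1 kb held 40.4% of the subunit genes' sites against 29.6% over all such genes, and the first 1 kb 24.5% against 11.1%. By complex, the last 1 kb held 16 of 47 sites in complex I, 4 of 8 in II, 9 of 18 in III, 7 of 13 in IV and 4 of 23 in V. The first 1 kb held 10, 1, 2, 0 and 10 of them. Complex V was thus the only complex with more sites in the first than in the last 1 kb. In ATP5ME, which spans 1841 nt, the same site lies in both windows. Exons and coding regions were not used here, so these windows do not separate untranslated from coding sequence.

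The first 50 nt of the gene held 7 of the 109 sites (6.42%), against 0.186% of all site-gene pairs, and these 7 are among 70 such sites in the whole list. Among genes under 20 kb the shares were 7.45% and 0.346%. Of the genes with a site, 7 of 55 had one in the first 50 nt (12.7%, against 0.901% of all genes with a site). The 7 are the positions whose sequences are given first above. They lay at nucleotide 2 of ATP5MJ, 3 of UQCRQ, 4 of ATP5F1C, 15 of ATP5MG, 20 of ATP5PO, 31 of SDHD and 34 of ATP5MC1, counted from 1 at the annotated 5′ end. Complex V held 5 of the 7, and complexes I and IV held 0. For ATP5MG, ATP5MJ and ATP5PO it was the gene's single site.

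Scores at the gene start were 0.327 in ATP5MJ, 7.73 in UQCRQ, 3.64 in ATP5F1C, 7.99 in ATP5MG, 12.1 in ATP5PO, 1.13 in SDHD and 12.7 in ATP5MC1. ATP5PO and ATP5MC1 were above the list's median of 8.67 and the other 5 below it. The median of the 7 was 7.73, against 6.42 over the other 102 subunit sites. Over all genes it was 3.99 for the 70 sites in the first 50 nt and 8.71 for the rest. None of the 7 was on 2 rows of the list. The comparison by distance from the gene start was chosen after the positions were seen, and the annotated start is the outermost of the gene's known transcripts, which need not be the one used in HEK293T.

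**Figure D4:**
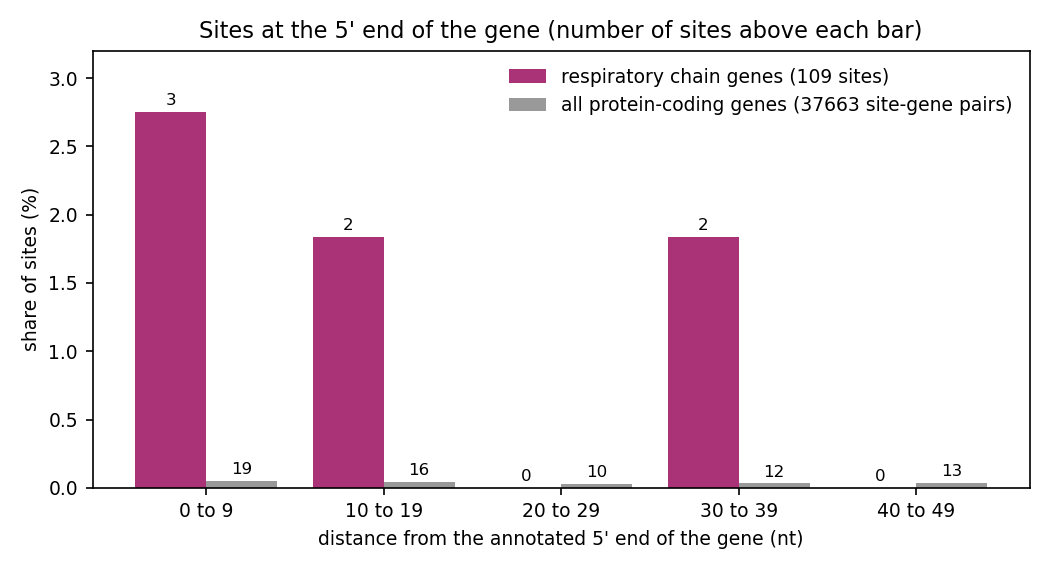
Bars give the share of sites (%, y axis) by distance in nt from the annotated 5′ end of the gene (x axis), for the 109 sites of respiratory chain genes and for all 37663 pairs of a site and a protein-coding gene, with the number of sites above each bar. The 7 subunit sites fall at 0 to 39 nt, where the bars for all genes stay close to 0.

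Sites of a subunit gene were spaced a median of 213 nt from the next, over 54 neighbouring pairs, against 151 nt over all genes. A neighbour within 50 nt was found for 15 of the 109 (13.8%), against 29.7% of the list. The list repeats some positions on 2 rows with their own scores, and the higher is used here. This held for 20 of the 109 positions (18.3%, against 14.8% of all positions), among them the top sites of COX7A2, COX4I1, UQCRFS1 and ATP5PF but not those of UQCR10, UQCRH, NDUFA8 and ATP5F1B.

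Assembly factors, which build the complexes without staying in them, held higher counts and scores of sites in this list than the subunits did, with no test made of the difference. Of 60 such genes, 44 held a site (73.3%, against 38.9% of all protein-coding genes), with 154 sites, a mean of 3.50 per gene with a site, which lay above the 1.98 of the subunits and below the 4.85 of all genes with a site. At least 3 sites were found in 26 of 60 (43.3%, against 14.5% of the subunits and 23.9% of all genes). The median highest score was 30.0, against 9.30 in the subunits and 21.8 over all genes with a site, and 13 of the 44 (29.5%) had a site in the top 10%, close to the 26.9% of all genes with a site. Among genes under 20 kb, 45.7% of assembly factors and 16.7% of subunits had 3 or more sites.

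By complex, 13 of 18 complex I assembly factors had a site, led by COA1 with 8, TMEM186 with 5, ECSIT with 4 and ACAD9 with 3. For complexes II and III it was 8 of 13, led by SDHAF1 with 8 sites, all in its last 1 kb in a gene of 1125 nt, then UQCC4 with 6 and UQCC1 and UQCC3 with 5 each, and UQCC3 scored up to 171. For complex IV it was 18 of 24, led by COA7 with 13, the copper chaperone SCO1 with 9, COX19 with 7 and LRPPRC, which stabilises mitochondrial mRNAs, with 6. All 5 complex V assembly factors had a site, with ATPAF1 and TMEM70 at 3 and ATPAF2 and FMC1 at 1. Complex IV subunits thus held 13 sites over 17 genes with a median span of 7095 nt, the 6 tissue isoforms without a site included. Its 24 assembly factors, with a median span of 12528.5 nt, held 75 sites. All protein-coding genes had a mean of 1.89 sites per gene.

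Of 8 related subunits and carriers outside the symbols used, 5 had a site. CYCS, which is cytochrome c, and the acyl carrier NDUFAB1 had 2 each, CYC1 and HIGD1A 1 each, and no gene of this list had 3. Transcriptional regulators of these genes had a site in 11 of 12 cases, with 47 sites, a mean of 4.27 per gene with a site. These genes are long, with a median span of 40567 nt, and of all protein-coding genes of 20 kb or more 45.5% held a site, with a mean of 5.19. The coactivator PPRC1 led with 14 sites and a highest score of 112, followed by PPARGC1B with 8, NRF1 with 6 and YY1 with 5 (highest score 156), and PPARGC1A had none. No position of the list lay on the mitochondrial chromosome, so the 13 mitochondrially encoded subunits had none.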

How the data were processed

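YTHDF2 iCLIP2 was made from 8 HEK293T libraries, 4 per treatment, grouped by the treatment in each label. The authors deposited 1 list, with no header, of positions 1 nt wide and a score on each row. Neither the labels nor the file state the scale of the score, the site caller or how replicates were pooled. Build GRCh38.p12 and the tools bedtools 2.27.1, UMI-tools 1.0.0, STAR 2.7.3a and FastQC 0.11.8 are named in the submitters' processing notes without their roles. The list has 0 columns of a single sample, so depth per library and precision are unknown.

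From the 43178 rows, 37613 distinct positions were kept with the higher score. Names, spans and types, without readthrough genes, came from RefSeq on GRCh38.p14, whose patches leave the main chromosomes unchanged. Strand came from the RefSeq promoter table for 68 of the 83 subunit genes and from the majority of positions for 5 (a rule that matched RefSeq in 99.9% of 6200 genes). The other 10 held 0 positions on either strand. A position counts for every gene whose span on its strand holds it, and no subunit position lay in a second protein-coding gene of known strand, and 1 lay in a gene of unknown strand.

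Values in full are given for genes with 3 or more sites or a site in the top 10% of scores, and up to 4 genes per other list. Not every gene is reported by name here. The genes and lists were chosen with earlier results of these data known. Alternatives were merging sites within 50 nt, keeping scores at or above the median, other rules for spans and rows, and the longer part of the list by row order (34243 rows). Computation used Python 3.11.15 and pandas 2.3.3.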

Additional observations from a re-analysis of the deposited data

How the results depend on the processing

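Keeping only sites at or above the median score, which leaves 50.0% of the list by construction, moved most counts. The share of subunit genes with a site was then 33.7%, against 30.5% of all protein-coding genes. The subunit genes' sites numbered 46, and complexes I to V held 19, 2, 11, 5 and 9 of them. The top 10% of that shorter list included the highest site of 2 genes in place of 8. The last 1 kb then held 21 of the 46 sites (45.7%, against 36.7% in full) and the first 50 nt held 2 (4.35%, against 6.42%). Binomial 95% intervals of the full values were 27.7 to 46.5 and 2.62 to 12.8. They cover counting error only and treat sites as independent, although a gene can hold several. The 46 sites are part of the full set, so these intervals give no separate check of the shares. Over all site-gene pairs at or above the median score, the shares in the last 1 kb and the first 50 nt were 18.3% and 0.0795%. Merging sites within 50 nt, dropping positions shared with another protein-coding gene, adding 1000 nt at the 3′ end, the lower score of repeated positions, and counting COXFA4 with complex IV each left every count computed within 1.5 times. With the longer part of the list alone, 47 of 83 genes held a site (56.6%, against 37.9% of all protein-coding genes). The first 50 nt then held 4 of 89 sites (4.49%, against 0.149% of all site-gene pairs). No paired analysis was possible because the list has no value per library, so leaving out a replicate was not possible either. The planned windows of 10 and 25 nt around all sites were not run without a genome.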

Other observations

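Other genes of the pathway also had a site in the first 50 nt. They were the complex IV assembly factors COX16, at nucleotide 5 with a score of 0.667, and COX17, at nucleotide 27 with 2.14, the complex I assembly factor TIMMDC1, at nucleotide 36 with 11.8, and TFAM, which packages mitochondrial DNA, at nucleotide 30 with 6.60. With the 7 subunit genes they are among the 70 genes of the list with such a site. These genes were looked for after the subunit positions were seen.

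The 55 subunit genes with a site had a median of 1 and a mean of 2.33 pseudogenes by symbol, and the 28 without a site a median of 0 and a mean of 2.61. Without the 6 tissue isoforms of complex IV, the median over the other 22 genes without a site was 1.5. The part of pseudogene copies in the listed sites was not tested. Genes with a site were also longer, with a median span of 10645 nt against 6978 nt, or 8040 nt without the tissue isoforms.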
